A study of Mus musculus with 12 samples.

Results

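The Hox genes were examined in RNA of mouse sciatic dorsal root ganglia (DRG), the ganglia at lumbar levels L4 to L6 that hold the cell bodies of the sensory neurons of the sciatic nerve. All gene names of the count table made of Hox, a cluster letter from a to d and a number were taken, which gave 38 of 44345 gene names. The name pattern uses no measured value, although results of these data were known when the Hox genes were chosen as the subject. Hoxd4 was not analysed here, and the sums, shares and rankings of the Hox genes leave it out. RNA of 12 samples in 4 groups of 3 was sequenced, and each sample pooled the ganglia of 2 C57BL/6 mice aged 5 to 8 weeks. Mice of the SH Sham and SH SNA groups spent 10 days in Standard Housing (SH), and mice of the EE Sham and EE + SNA groups spent 10 days in Environmental Enrichment (EE), which offers company, objects and exercise. They then had sciatic nerve axotomy (SNA), in which the nerve is cut, or a sham operation that leaves it whole, and L4 to L6 ganglia were collected after 24 h. Whole ganglia were sequenced, so that neurons, satellite glia, Schwann cells and other cells were measured together, and a smaller number of cells of a type and less RNA per cell cannot be told apart. The study describes the EE Sham data as an earlier data set, and whether these samples were sequenced apart is not given in the labels. If they were, a difference of batch and a difference of housing cannot be told apart there. Such a batch would also enter the other comparisons that use EE Sham. These include SNA against Sham over both housings, EE + SNA against EE Sham and the interaction of housing and surgery. The comparison of SH SNA with SH Sham does not use EE Sham.

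Hox genes encode homeodomain transcription factors that give cells their position along the axis from head to tail. They lie in 4 clusters, and genes of the same number in different clusters, called a paralog group, descend from 1 ancestral gene. Low numbers are first used towards the head and high numbers towards the tail, in the order of the genes along the chromosome, so that the set of Hox genes in use in a spinal or ganglionic segment is called its Hox code. In the spinal cord of the embryo, paralog groups 4 to 8 mark cervical and brachial levels, Hoxc9 marks thoracic levels and paralog groups 10 and 11 mark lumbar and upper sacral levels. In GRCm38 coordinates, the members lay on chromosome 6 (Hoxa, 11 members) and spanned chr11:96194316-96368256 (Hoxb, 10 members), chr15:102921103-103036852 (Hoxc, 9 members) and chr2:74668310-74765142 (Hoxd, 8 members).

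The samples held 11343579 to 22871460 reads on genes. All 7 markers of sensory neurons were measured, led by Calca, the gene of the peptide CGRP, at 1027 ± 62.4 FPKM (SD, n = 12). Summed over the 4 markers of spinal motor neurons, the level was 2.51 to 3.98 CPM (counts scaled to library size), and the 4 markers of skeletal muscle, a tissue close to the dissected ganglia, ranged from 1.94 to 683 CPM with the highest value in SH SNA replicate 2. Atf3, a gene induced by nerve injury, was at 110 to 168 CPM in the 6 sham samples and at 454 to 549 CPM in the 6 SNA samples. Levels of different genes were compared as FPKM, which are reads scaled by transcript length and by the size of the library, and each gene was compared between groups as counts, shown as CPM.

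Of the 38 members, 22 were expressed at a mean of at least 1 FPKM over the 12 samples. The code was centred on paralog groups 7 to 10. These groups held 72.1% ± 1.21 (SD, n = 12) of the summed Hox FPKM, and 12 of their 12 members were expressed. At the caudal end the code fell off after paralog group 10, as no member of paralog group 11 reached a mean of 1 FPKM. The 6 members of paralog groups 12 and 13 had 5 counts together in the 12 samples. At the rostral end the code faded, with 3 of the 8 members of paralog groups 1 to 3 expressed and 9.56% ± 1.32 of the summed FPKM.

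**Figure D1:**
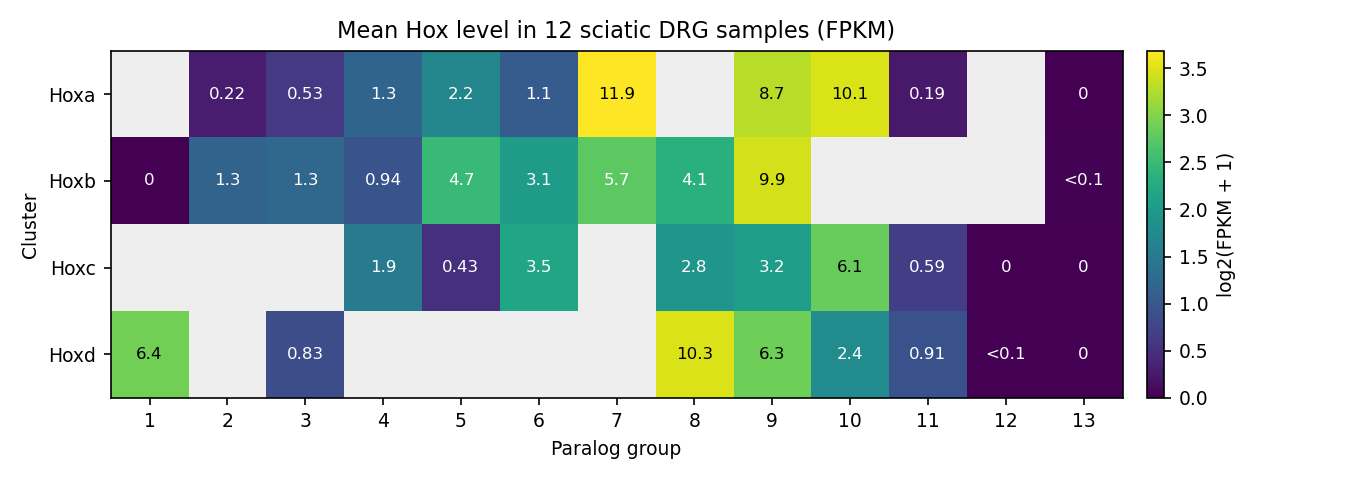
Mean level in FPKM of each Hox gene over the 12 samples, with the 4 clusters as rows and the 13 paralog groups as columns. The colour shows log2(FPKM + 1) and a grey cell means that no value is shown. The highest levels lie in paralog groups 7 to 10, and paralog groups 12 and 13 are at or near 0.

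In paralog group 1, whose members pattern the hindbrain, Hoxd1 alone was expressed, at 6.43 ± 2.00 FPKM, while Hoxb1 had 0 counts. Hoxd1, known in mammals for the wiring of nociceptive neurons, was well above the other members of paralog groups 1 to 3, of which Hoxb3 was the next in level. By mean level over the 12 samples it was number 6 among all members, followed by Hoxd9 and Hoxc10. In SH Sham, Hoxd1 at 8.71 ± 0.252 FPKM lay above Hoxd9 at 6.49 ± 0.610 and Hoxc10 at 6.49 ± 0.208. In SH SNA, Hoxd1 at 4.72 ± 0.0657 FPKM lay below Hoxd9 at 6.03 ± 0.817 and Hoxc10 at 5.39 ± 0.740 (SD, n = 3). The mean of Hoxd1 was also above both in EE Sham and below both in EE + SNA. In paralog group 2, Hoxb2 was at 1.25 ± 0.138 FPKM and Hoxa2, which patterns the hindbrain and the second pharyngeal arch, was at 0.218 FPKM. Hoxb2 had 4.58, 5.38 and 4.35 CPM in SH Sham, 3.82, 4.48 and 4.06 in SH SNA, 4.78, 4.10 and 5.04 in EE Sham and 4.18, 3.83 and 4.19 in EE + SNA. In paralog group 3, Hoxb3 was at 1.34 ± 0.154 FPKM, Hoxd3 at 0.830 FPKM and Hoxa3 at 0.532 FPKM. Hoxb3 had 4.63, 3.95 and 4.08 CPM in SH Sham, 4.74, 3.30 and 4.30 in SH SNA, 4.24, 3.26 and 3.90 in EE Sham and 4.36, 4.35 and 3.71 in EE + SNA. The levels of Hoxb3 overlapped between all 4 groups, and those of Hoxb2 overlapped except that the EE + SNA samples lay below the SH Sham samples, a difference that was not called (−0.24, SE 0.16, adjusted P = 0.382).

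In paralog groups 4 and 5, used from the hindbrain and neck downwards, levels were intermediate. Of the members analysed, which leave out Hoxd4, Hoxc4 led paralog group 4 at 1.90 ± 0.228 FPKM, above Hoxa4 at 1.27 FPKM and Hoxb4 at 0.938 FPKM. Hoxb5, a regulator of enteric neural crest cells, led paralog group 5 at 4.66 ± 0.485 FPKM, with Hoxa5 at 2.23 FPKM and Hoxc5 at 0.427 FPKM. In paralog group 6, known for brachial and thoracic levels, the 3 members were all expressed. Hoxc6 was at 3.47 ± 0.499 FPKM, Hoxb6 at 3.05 FPKM and Hoxa6 at 1.11 FPKM. Hoxc6 had 9.44, 10.98 and 7.49 CPM in SH Sham, 8.64, 7.18 and 7.72 in SH SNA, 8.57, 8.88 and 9.50 in EE Sham and 8.99, 7.05 and 10.5 in EE + SNA, with overlap between all 4 groups.

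All 9 members of paralog groups 7 to 9 were expressed. Hoxa7 was the highest at 11.9 ± 1.11 FPKM, and Hoxb7 was at 5.74 FPKM. In paralog group 8, Hoxd8 was at 10.3 ± 0.515 FPKM, Hoxb8, which is used in neural tissue from the neck downwards, at 4.08 FPKM, and Hoxc8 at 2.79 FPKM. The 4 members of paralog group 9 were at 9.92 FPKM (Hoxb9), 8.73 FPKM (Hoxa9), 6.29 FPKM (Hoxd9) and 3.19 FPKM (Hoxc9). Together they took 24.9% ± 1.40 of the summed Hox FPKM (SD, n = 12), the largest share of any paralog group. Hoxc9, known for setting thoracic motor neuron identity, was the lowest of them.

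In paralog group 10, whose members act at lumbar levels of spinal cord and skeleton, the 3 members were at 10.1 ± 1.297 FPKM (Hoxa10), 6.12 ± 0.822 FPKM (Hoxc10) and 2.43 ± 0.625 FPKM (Hoxd10). In paralog group 11, none reached a mean of 1 FPKM over the 12 samples, although Hoxd11 reached up to 1.42 FPKM in a single sample. Hoxd11 was at 0.911 ± 0.240 FPKM, Hoxc11 at 0.592 ± 0.178 FPKM and Hoxa11 at 0.187 FPKM. Between the paralog groups 10 and 11 the summed level fell from 18.6 ± 1.86 to 1.69 ± 0.371 FPKM. Beyond them, Hoxb13 had 4 counts and Hoxd12 had 1 count in the 12 samples, and Hoxa13, Hoxc12, Hoxc13 and Hoxd13 had 0 counts, as had Hoxb1. Paralog groups 12 and 13 are known for their use in the tail, the distal limb and the urogenital tract. A count of 0 over the reads of all 12 samples allows a level of up to 0.018 CPM, by 3 counts and for counting error only.

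Levels of neighbours in this order were often closer than the spread between samples. Hoxd8, Hoxa10 and Hoxb9 followed each other within 1 SD over all samples, as did Hoxd9, Hoxc10 and Hoxb7. Hoxd1 also lay within 1 SD of Hoxd9, but its SD includes the difference between SNA and sham samples. The last member above 1 FPKM was Hoxa6 at 1.11 FPKM, and the first below was Hoxb4 at 0.938 FPKM. By cluster, Hoxa held 32.3% ± 1.28, Hoxb 27.4% ± 0.904, Hoxd 24.0% ± 1.17 and Hoxc 16.4% ± 0.730 of the summed FPKM (SD, n = 12). The length that the deposited FPKM imply differed by over 10% from the exon bases in GENCODE for 10 of the 33 members with a count. With the GENCODE lengths, a choice made after seeing the data, 24 members were expressed, as Hoxb4, Hoxd3 and Hoxd11 passed 1 FPKM and Hoxb3 fell below it. The setting for strand was not given in the sources used here, and reads of a gene and of its antisense partner then cannot be told apart. Exons of the antisense gene Hoxb3os cover 52.9% of the exon bases of Hoxb3 and 27.3% of those of Hoxb2, and those of Hoxaas3 cover 20.4% of Hoxa7. Hoxd1, Hoxa10, Hoxb6, Hoxb7 and Hoxb8 share no exon bases with another gene.

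**Figure D2:**
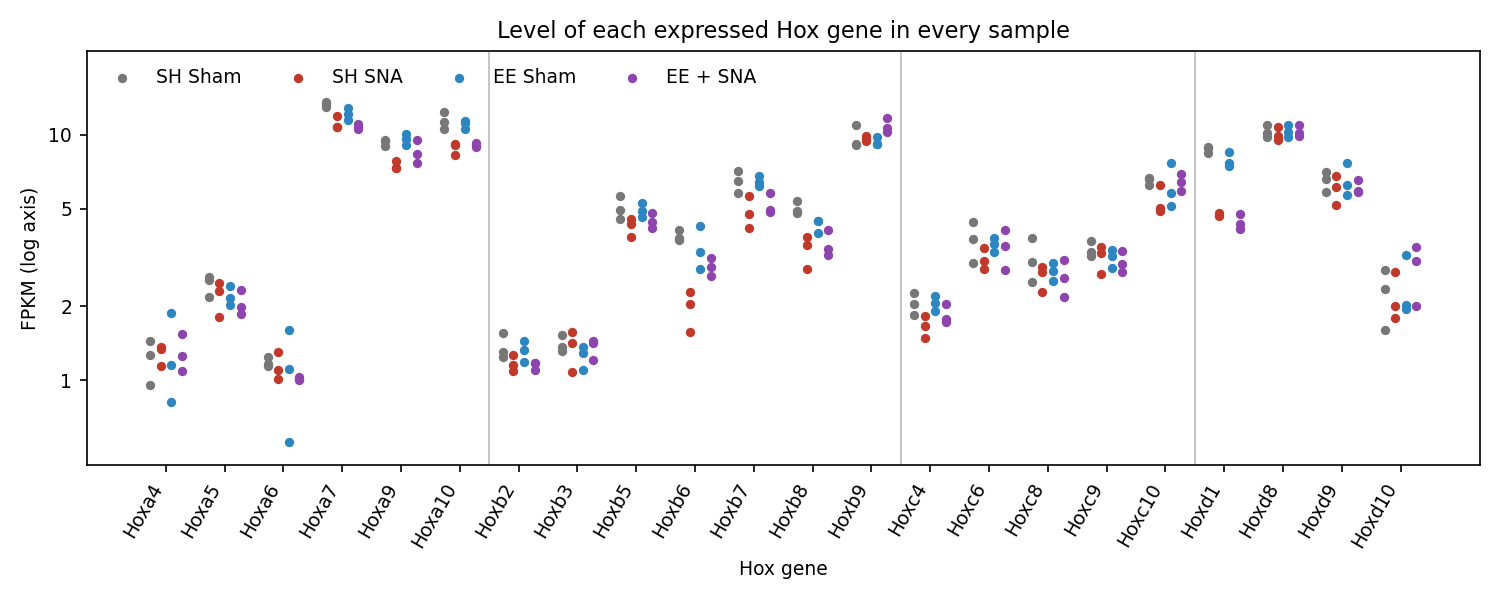
FPKM (log axis) in every sample for the 22 members with a mean of at least 1 FPKM, ordered by cluster and number, with vertical lines between clusters. Each point is a sample and the colour gives its group. Points of the 4 groups overlap for most genes, and the SNA samples of Hoxd1 lie below the sham samples.

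The order of the levels was shared by the 12 samples. Across the 29 members that passed the filter on low counts, Spearman's rho between the FPKM of 2 samples was 0.958 to 0.995 over the 66 pairs of samples. These 29 genes are not independent replicates, and their mean levels span a wide range. The same 5 genes, Hoxa7, Hoxd8, Hoxa10, Hoxb9 and Hoxa9, were the highest in each of the 4 groups. Hoxa7 came first in 3 groups, and Hoxb9 came first in EE + SNA.

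By the ratio of its highest to its lowest sample, Hoxd8 varied least of the 29 members, at 1.17-fold. It had 30.3, 27.8 and 26.9 CPM in SH Sham, 29.6, 27.5 and 26.3 in SH SNA, 27.8, 27.9 and 30.1 in EE Sham and 30.8, 28.0 and 27.7 in EE + SNA. Its log2 fold change was −0.0090 for SNA against Sham, with a 95% interval of −0.12 to 0.11, and 0.030 for EE against SH, with an interval of −0.085 to 0.15. The next ratios were 1.27-fold for Hoxa7, 1.32-fold for Hoxb9 and 1.37-fold for Hoxc9. By the SD within groups on the log2 CPM scale, Hoxa7 at 0.059 and Hoxa10 at 0.079 varied less than Hoxd8 at 0.081. Hoxb9 had 23.8, 28.0 and 23.3 CPM in SH Sham, 24.9, 25.7 and 24.4 in SH SNA, 24.4, 23.4 and 25.3 in EE Sham and 28.0, 26.5 and 30.8 in EE + SNA. The median SD within groups was 0.17 on the log2 CPM scale over the 29 members and 0.13 over all 16238 genes tested.

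As a summary of the code, the paralog numbers were averaged with the FPKM of the members as weights, so that a higher value means a code weighted towards the tail. This mean paralog number was 7.26 ± 0.013 in SH Sham, 7.44 ± 0.050 in SH SNA, 7.31 ± 0.089 in EE Sham and 7.54 ± 0.020 in EE + SNA (SD, n = 3 each). The 3 samples were 7.25, 7.26 and 7.28 in SH Sham, 7.39, 7.48 and 7.44 in SH SNA, 7.26, 7.26 and 7.41 in EE Sham and 7.55, 7.55 and 7.51 in EE + SNA. The SNA groups thus lay higher, with an overlap between SH SNA and EE Sham. Without Hoxd1, a choice made after seeing the data, the means were 7.74 ± 0.013, 7.75 ± 0.042, 7.76 ± 0.071 and 7.81 ± 0.038 in the same order. The samples of SH SNA then lay within the range of the EE Sham samples. Those of EE + SNA, at 7.77 to 7.84, still lay above those of SH Sham, at 7.73 to 7.75. They overlapped with the samples of SH SNA and EE Sham. The share of paralog groups 10 and 11 was 17.7% ± 0.473, 17.5% ± 1.001, 17.9% ± 1.05 and 18.7% ± 1.55, with overlap between all 4 groups. The summed Hox FPKM was 123 ± 4.35 in SH Sham, 103 ± 4.91 in SH SNA, 118 ± 4.78 in EE Sham and 108 ± 1.44 in EE + SNA. No test was made on these summaries of the members.

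After SNA, several Hox genes were called lower, and none was called higher when SNA was compared with Sham over both housings. Over both housings, Hoxd1 fell furthest, to about 55% of its sham level. There 2 runs of neighbouring genes fell by smaller amounts, Hoxa7, Hoxa9 and Hoxa10 in the Hoxa cluster and Hoxb6, Hoxb7 and Hoxb8 in the Hoxb cluster. In this comparison of 6 with 6 samples, 10 of the 29 members tested were lower at the unadjusted P of 0.05 that the study uses (the 7 named, Hoxa3, Hoxb5 and Hoxc4) and 0 were higher. Of all genes tested, 34.7% were called in either direction and 16.6% lower. The 10 of 29 called are close to the share in either direction, so that the count says nothing particular to the Hox genes. All 10 were lower, and these 29 genes are not independent replicates. After Benjamini-Hochberg adjustment over all genes, 8 members were lower (without Hoxb5 and Hoxc4), against 22.4% of all genes called in either direction and 11% lower. The median log2 fold change was −0.14 over the 29 members and 0.0071 over all genes. By cluster, 4 of 8 members tested were lower in Hoxa, 4 of 8 in Hoxb, 1 of 7 in Hoxc and 1 of 6 in Hoxd. Every adjusted P given for a gene is from the quasi-likelihood F test of edgeR with Benjamini-Hochberg adjustment, and log2 fold changes are given with their SE.

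Hoxd1, at chr2:74762980-74765142, had 16.7, 16.3 and 15.6 CPM in SH Sham, 8.95, 8.79 and 8.83 in SH SNA, 16.3, 13.7 and 14.3 in EE Sham and 8.99, 8.09 and 7.82 in EE + SNA. Each of the 6 SNA samples was below each of the 6 sham samples, and the values of SH SNA differed little among themselves. The log2 fold change was −0.87 (SE 0.10, adjusted P = 0.000132) in SH SNA compared with SH Sham. In EE + SNA it was −0.97 (SE 0.10, adjusted P = 0.000113) compared with SH Sham and −0.84 (SE 0.12, adjusted P = 0.00186) compared with EE Sham. Over both housings it was −0.85 (SE 0.069, adjusted P = 1.14e-07), which left 55.4% of the sham level. The call held without any single sample and under each alternative tried.

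The promoter of Hoxd1 is shown because no other member fell as far over both housings, and that of Hoxb8 because it fell with its neighbours. RefSeq's GRCm38.p6 table held promoters of 21 members, with 23 entries in all. Printed are the 250 bases before the start on the + strand, chr2:74762730-74762979 for Hoxd1 and chr11:96281655-96281904 for Hoxb8, with the dinucleotide CG in capitals.
Hoxd1: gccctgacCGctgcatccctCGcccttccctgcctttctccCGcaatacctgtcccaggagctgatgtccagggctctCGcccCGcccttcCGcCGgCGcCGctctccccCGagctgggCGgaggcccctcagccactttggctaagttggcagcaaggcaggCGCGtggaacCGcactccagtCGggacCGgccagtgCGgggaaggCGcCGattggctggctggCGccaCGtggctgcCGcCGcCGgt
Hoxb8: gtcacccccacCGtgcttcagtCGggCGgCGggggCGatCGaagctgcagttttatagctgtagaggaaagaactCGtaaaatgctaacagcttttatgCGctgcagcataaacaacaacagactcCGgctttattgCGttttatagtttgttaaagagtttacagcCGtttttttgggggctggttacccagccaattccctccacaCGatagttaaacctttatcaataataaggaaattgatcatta
The Hoxd1 stretch held 24 CG in 71.6% G and C, and that of Hoxb8 held 12 CG in 44.4% G and C. The medians were 13 CG and 59.2% over the 23 Hox entries and 6 CG and 52.4% over the 32851 promoters of the table. Letters of known motifs were searched on both strands, with overlaps between motifs allowed. The Hoxd1 stretch held 1 CCAAT and 2 GC boxes (GGGCGG) but no TATA box (TATAAA), AP-1 site (TGANTCA), CRE (TGACGTCA) or Hox-Pbx site (TGATNNAT). The Hoxb8 stretch held 2 TATA boxes, 1 Hox-Pbx site, 1 CCAAT and 1 GC box. Of all promoters, with the 50 bases after the start included, 13.6% held the TATA box, 7.81% the AP-1 site, 1.79% the CRE, 8.85% the Hox-Pbx site, 37.4% CCAAT and 35.7% the GC box. The 23 Hox entries held them in 3, 1, 0, 4, 14 and 10 promoters. These are matches of letters, and binding was not measured.

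The run of Hoxa7, Hoxa9 and Hoxa10 lies at chr6:52214491-52221854, chr6:52223100-52231089 and chr6:52231197-52240854, with no member between them. Hoxa10 had 34.8, 40.2 and 36.8 CPM in SH Sham, 30.0, 30.0 and 27.2 in SH SNA, 38.4, 36.2 and 34.5 in EE Sham and 30.9, 29.1 and 30.2 in EE + SNA. The SNA samples lay below the sham samples in both housings, and the log2 fold change over both housings was −0.32 (SE 0.053, adjusted P = 0.000266). Hoxa7, the highest member of the code, had 39.2, 38.2 and 37.3 CPM in SH Sham, 31.0, 34.7 and 31.0 in SH SNA, 34.1, 36.5 and 35.2 in EE Sham and 31.1, 31.0 and 32.4 in EE + SNA. The ranges of SH SNA and EE Sham overlapped for Hoxa7, and the log2 fold change over both housings was −0.21 (SE 0.047, adjusted P = 0.00427). Hoxa9 had 53.3, 52.3 and 50.2 CPM in SH Sham, 41.1, 44.4 and 40.9 in SH SNA, 55.4, 50.1 and 56.5 in EE Sham and 47.4, 42.6 and 54.2 in EE + SNA. It was lower in SH SNA than in SH Sham without overlap (log2 fold change −0.30, SE 0.066, adjusted P = 0.0106), whereas the EE + SNA samples overlapped with the sham samples and the difference from EE Sham was −0.18 (SE 0.089, adjusted P = 0.282). The interaction of housing and surgery was 0.13 for Hoxa9 (95% interval −0.11 to 0.37, adjusted P = 1), so that the change after SNA was not shown to differ between housings. Among the other members of this cluster, Hoxa3 was called lower over both housings, at −0.36 (SE 0.12, adjusted P = 0.0348). It had 3.81, 3.80 and 4.01 CPM in SH Sham, 3.21, 3.72 and 2.55 in SH SNA, 4.69, 4.55 and 3.82 in EE Sham and 3.38, 3.35 and 2.98 in EE + SNA. The adjusted call of Hoxa3 was lost in 7 of the 12 fits that left out a sample, with an adjusted P of up to 0.081. Exons of other genes cover 27.1% of the exon bases of Hoxa3.

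The run of Hoxb6, Hoxb7 and Hoxb8 lies at chr11:96292476-96301569, chr11:96286623-96290162 and chr11:96281905-96285315. Hoxb6 had 8.51, 7.68 and 7.82 CPM in SH Sham, 4.74, 4.31 and 3.26 in SH SNA, 7.13, 5.84 and 8.85 in EE Sham and 5.61, 6.53 and 6.12 in EE + SNA. The SH SNA samples were the lowest 3 of the 12, and the log2 fold change was −0.96 (SE 0.15, adjusted P = 0.00153) against SH Sham, which left 51.4% of its level. Hoxd1 kept 54.8% of its level in this comparison, so that Hoxb6 fell slightly further within SH. In EE + SNA the change of Hoxb6 was −0.39 (SE 0.13, adjusted P = 0.0740) against SH Sham and −0.25 (SE 0.17, adjusted P = 0.437) against EE Sham. Hoxb8 had 13.02, 14.1 and 12.7 CPM in SH Sham, 9.40, 10.3 and 7.56 in SH SNA, 12.1, 10.4 and 11.8 in EE Sham and 11.04, 8.57 and 9.19 in EE + SNA. Its log2 fold change over both housings was −0.41 (SE 0.094, adjusted P = 0.00448), and the samples of EE Sham and EE + SNA overlapped. Hoxb7 had 10.0, 10.98 and 8.96 CPM in SH Sham, 7.34, 8.79 and 6.45 in SH SNA, 10.2, 9.41 and 10.5 in EE Sham and 7.65, 7.61 and 9.11 in EE + SNA. It was lower over both housings, at −0.36 (SE 0.091, adjusted P = 0.00828), and each injured group compared with SH Sham alone gave an adjusted P of 0.0806 (SH SNA) or 0.149 (EE + SNA). Next to this run, Hoxb5 was lower over both housings at the unadjusted threshold alone (log2 fold change −0.19, SE 0.074, adjusted P = 0.0806). Hoxb5 had 12.8, 15.7 and 13.8 CPM in SH Sham, 12.2, 12.9 and 10.8 in SH SNA, 13.4, 13.7 and 14.9 in EE Sham and 11.9, 12.4 and 13.7 in EE + SNA. On the other side of the run, Hoxb9 had a log2 fold change of 0.11 over both housings (95% interval −0.030 to 0.25).

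**Figure D3:**
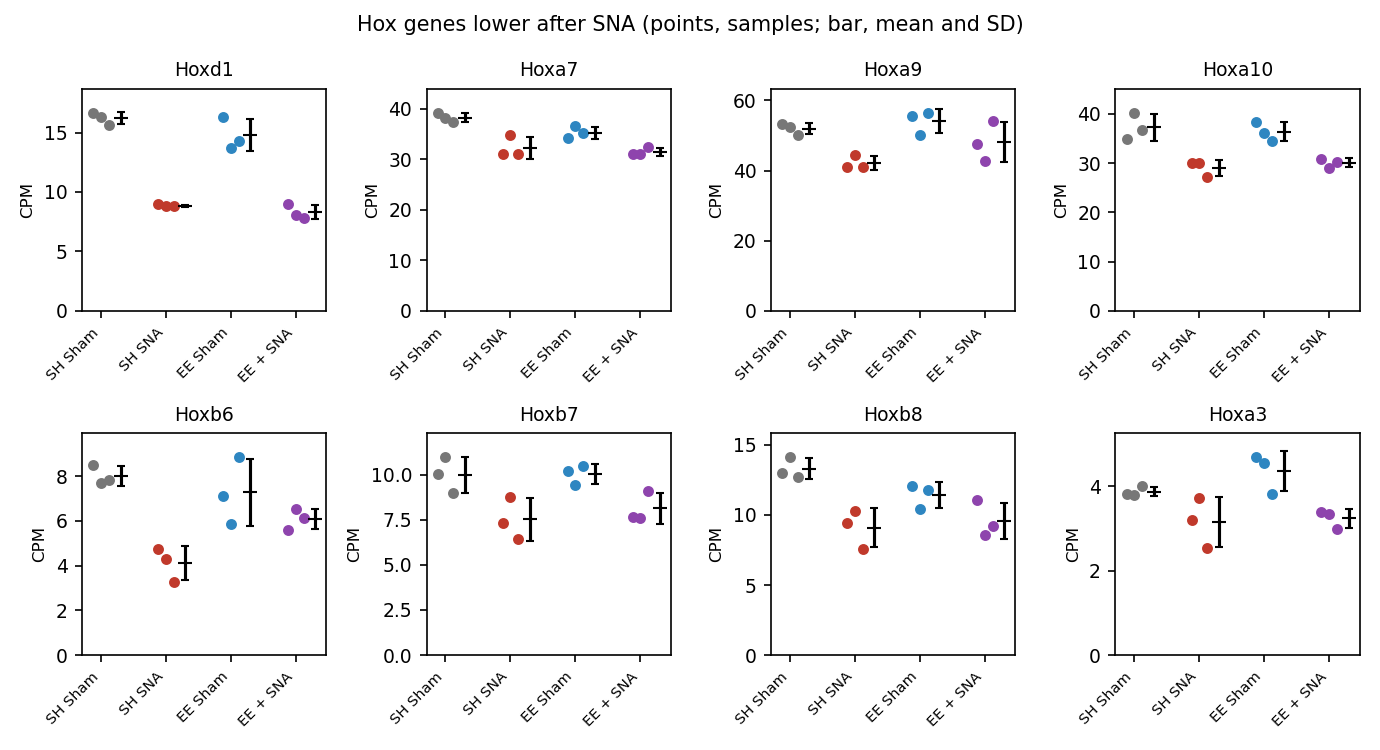
CPM of the 8 members that were lower after SNA at the adjusted threshold over both housings, by group. Points are samples and the bar is the mean with its SD (n = 3), with each axis starting at 0. The SNA samples of Hoxd1 lie at 7.82 to 8.99 CPM, below the sham samples at 13.7 to 16.7 CPM.

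In the Hoxc cluster, Hoxc4 was called lower over both housings, at the unadjusted threshold alone (−0.23, SE 0.10, adjusted P = 0.126). Hoxc4 had 5.81, 4.66 and 5.21 CPM in SH Sham, 4.66, 4.31 and 3.82 in SH SNA, 5.78, 4.86 and 5.28 in EE Sham and 4.63, 4.39 and 5.32 in EE + SNA. The call of Hoxc4 was lost in 8 of the 12 fits that left out a sample. The remaining members of this cluster had log2 fold changes from −0.20 to 0.35, none of them called. The thoracic and lumbar members Hoxc9 and Hoxc10 had −0.069 (95% interval −0.26 to 0.12) and −0.090 (95% interval −0.31 to 0.13). In the Hoxd cluster, none of the other 5 members tested was called, with −0.029 for Hoxd3 (95% interval −0.25 to 0.19).

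**Figure D4:**
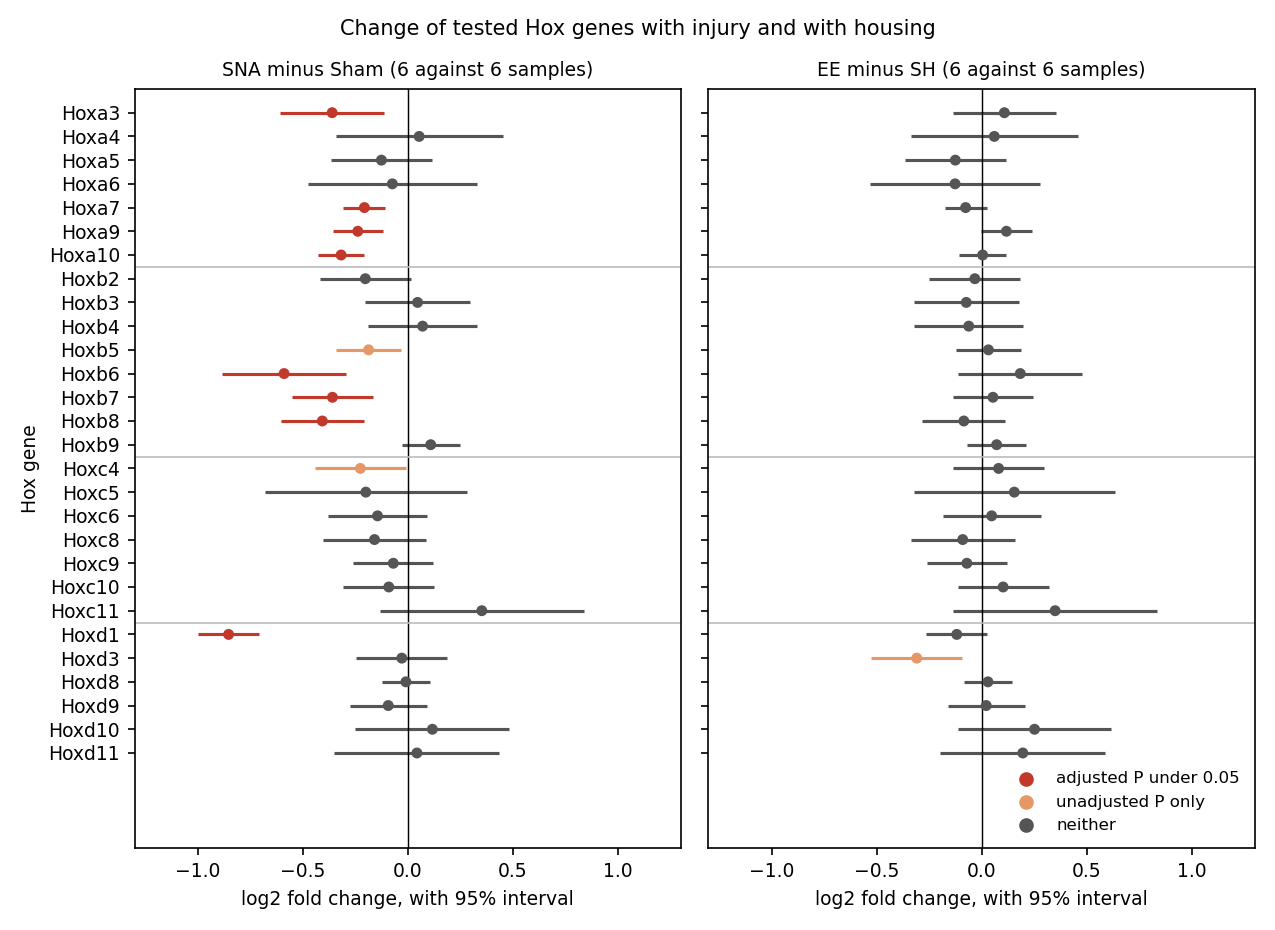
Log2 fold change with its 95% interval for 28 of the 29 members tested, for SNA minus Sham (left) and EE minus SH (right), 6 against 6 samples each. Horizontal lines separate the clusters, and the colour gives the call. Hoxd1 at −0.85 lies farthest from 0 on the left, and on the right only Hoxd3, at −0.31, is called, before adjustment.

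Housing by housing, SH SNA differed from SH Sham in 7 of the 29 members, all lower (Hoxd1, Hoxa7, Hoxa9, Hoxa10, Hoxb6, Hoxb7 and Hoxb8), where 25.2% of all genes were called and 11.8% lower. After adjustment 5 were lower, as Hoxa7 and Hoxb7 were lost, where 11.2% of all genes were called and 5.17% lower. EE + SNA differed from SH Sham in 7 members, 6 lower and 1 higher, where 27.2% of all genes were called and 12.6% lower. After adjustment Hoxd1, Hoxa7, Hoxa10 and Hoxb8 were lower, where 12.5% of all genes were called and 5.63% lower. The member called higher was Hoxc11, a lumbosacral gene, at 0.69 (SE 0.27, adjusted P = 0.117). It had 1.11, 0.861 and 0.869 CPM in SH Sham, 0.612, 1.77 and 1.11 in SH SNA, 1.17, 0.835 and 1.46 in EE Sham and 1.60, 1.52 and 1.53 in EE + SNA, which rests on 201 counts in all, and 4 of the 6 fits that left out a sample lost the call. Within EE, EE + SNA differed from EE Sham in 6 members, of which Hoxd1, Hoxa3, Hoxa7, Hoxa10 and Hoxb7 were lower and Hoxb9 was higher (0.21, SE 0.086, adjusted P = 0.189). Of all genes, 20.6% were called in this comparison and 10.4% lower, and after adjustment Hoxd1 alone of the members remained, where 4.83% of all genes were called. The comparisons with SH Sham share its 3 samples and are not independent of each other. A test of any difference between the 4 groups called 8 members (the 7 lower after SH SNA and Hoxa3), where it called 24.4% of all genes. After adjustment 6 remained (without Hoxa3 and Hoxb7), where 11.7% of all genes were called. At the unadjusted threshold, each count of members in this paragraph was close to the share of all genes called in either direction.

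Some markers of cell types also differed between Sham and SNA, and their part in the changes of the Hox genes was not tested. The summed level of the 7 sensory neuron markers was 6683 to 7377 CPM in SH Sham, 6056 to 6612 in SH SNA, 6566 to 6800 in EE Sham and 6261 to 6442 in EE + SNA. Over both housings, 4 of these 7 were called lower after SNA and 0 higher (3 lower after adjustment), and their median change was −0.13 on the log2 scale. The transcription factor Isl1 was lower, at −0.41 (SE 0.052, adjusted P = 1.69e-05), while Prph, a neuronal intermediate filament, was at −0.034 (SE 0.046, adjusted P = 0.650). Of the 5 markers of Schwann cells 4 were called higher, as were 2 of 5 of satellite glia, 2 of 5 of macrophages, 3 of 4 of fibroblasts and 1 of 3 of endothelium, where 34.7% of all genes were called in either direction. The 4 markers of sympathetic neurons summed to 35.2 to 57.2 CPM, and the 1 that passed the filter was not called. The 5 of spinal cord glia summed to 17.2 to 24.7 CPM with Olig2 at 0 in all 12 samples, and 1 (Gfap) of the 2 tested was called higher. For spinal motor neurons 1 marker was tested and not called. Of the 4 muscle markers 3 were called higher before adjustment and 0 after it. Without SH SNA replicate 2, the sample highest in muscle markers, 9 members were called for SH SNA against SH Sham and 7 after adjustment, in place of 7 and 5. In that fit 3867 of the 16238 genes were called and 1683 after adjustment.

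Without injury, few differences between the housings were called. EE Sham differed from SH Sham in 1 of the 29 members at the unadjusted threshold, where 2.97% of all genes were called, and in 0 after adjustment. It was Hoxd3, a rostral gene, at −0.39 (SE 0.15, adjusted P = 1). Hoxd3 had 6.92, 6.24 and 5.88 CPM in SH Sham, 6.19, 6.00 and 5.57 in SH SNA, 4.69, 5.24 and 4.63 in EE Sham and 5.61, 5.48 and 3.95 in EE + SNA. The EE Sham samples were below the 3 SH Sham samples, and the unadjusted call was lost in 3 of the 6 fits that left out a sample. Exons of other genes cover 62.8% of the exon bases of Hoxd3. Over both surgeries, Hoxd3 was again the 1 member called for EE against SH (−0.31, SE 0.10, adjusted P = 0.936), where 4.69% of all genes were called. For the other 28 members, the estimates ran from −0.13 to 0.35 in this comparison, and the median half-width of a 95% interval over the 29 was 0.22.

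After SNA, EE + SNA differed from SH SNA in 1 member, Hoxb6, where 4.10% of all genes were called. Hoxb6 was higher in EE + SNA by 0.57 on the log2 scale (SE 0.17, adjusted P = 0.989), and the samples of the 2 groups did not overlap. The interaction of housing and surgery also called 1 member, Hoxb6 (0.72, SE 0.23, adjusted P = 1), where 2.61% of all genes were called. After adjustment edgeR called 0 members for either. For Hoxd1 the interaction was 0.036 (95% interval −0.27 to 0.34). The bound of this interval farthest from 0 is well under the size of the fall itself.

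The lumbar members of the Hoxd cluster varied between samples of the same group. Hoxd10 had 7.51, 4.23 and 6.22 CPM in SH Sham, 5.35, 7.44 and 4.78 in SH SNA, 5.32, 5.31 and 8.61 in EE Sham and 8.28, 9.27 and 5.40 in EE + SNA. Hoxd11 had 5.10, 4.38 and 5.82 CPM in SH Sham, 3.13, 4.99 and 5.49 in SH SNA, 4.69, 3.57 and 6.91 in EE Sham and 5.25, 7.96 and 4.27 in EE + SNA. EE + SNA replicate 2 was the highest and EE Sham replicate 3 the second for both genes, while Hoxc10 was highest in EE Sham replicate 3 and second in EE + SNA replicate 2. Hoxc10 had 12.7, 12.5 and 11.9 CPM in SH Sham, 9.40, 12.1 and 9.63 in SH SNA, 11.4, 9.64 and 14.6 in EE Sham and 12.5, 13.2 and 11.5 in EE + SNA. The SD within groups was 0.39 for Hoxd10 and 0.40 for Hoxd11 on the log2 CPM scale, where counting error alone gives 0.15 and 0.17. For Hoxd8, 2 genes away from Hoxd10 in the same cluster, the SD was 0.081 and counting error gives 0.073. None of Hoxd10, Hoxd11 and Hoxc10 was called in any comparison of the main tests. Of the same paralog groups, Hoxa10 was called lower after SNA over both housings (−0.32, SE 0.053, adjusted P = 0.000266). Hoxc11 was called higher in EE + SNA than in SH Sham, before adjustment only. For Hoxd10, the log2 fold change was 0.12 for SNA against Sham (95% interval −0.25 to 0.48) and 0.25 for EE against SH (95% interval −0.11 to 0.62).

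**Figure D5:**
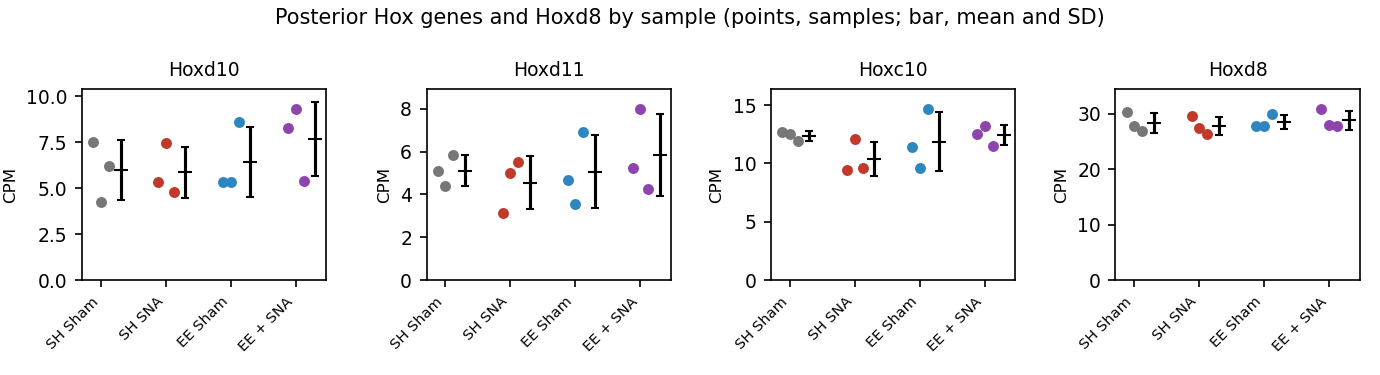
CPM of Hoxd10, Hoxd11, Hoxc10 and Hoxd8 by group, with samples as points and the mean with its SD as a bar (n = 3). Hoxd10 ranges from 4.23 to 9.27 CPM with a wide spread within groups, and Hoxd8 ranges from 26.3 to 30.8 CPM.

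Hox proteins bind DNA with cofactors of the TALE class, the Pbx, Meis and Pknox proteins, and all 9 TALE genes were tested. Pbx2 at 12.9 ± 0.712 FPKM and Meis3 at 9.08 ± 0.429 FPKM (SD, n = 12) were the highest, and neither was called for SNA against Sham over both housings. Of the 9 genes, 3 were lower in that comparison after adjustment, and 1 (Pknox1) was called higher before adjustment only. Over all genes, 22.4% were called after adjustment and 34.7% before it. The log2 fold change was −0.44 (SE 0.065, adjusted P = 8.46e-05) for Meis2, −0.40 (SE 0.057, adjusted P = 5.34e-05) for Pknox2 and −0.46 (SE 0.13, adjusted P = 0.0138) for Meis1. For EE against SH 1 TALE gene was called before adjustment, Pbx2 at −0.11 (SE 0.040, adjusted P = 0.997), where 4.69% of all genes were called.

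The Polycomb proteins keep unused Hox genes silent, and the Trithorax proteins with the H3K27 demethylases act against them. Of 17 Polycomb genes tested, 3 were called higher (Bmi1, Rnf2 and Phc2) and 3 lower for SNA against Sham over both housings, and the 3 lower ones passed adjustment. These 6 of 17 are close to the 34.7% called over all genes, so that the count says nothing particular to the Polycomb list. Among the lower ones were Cbx6 (−0.28, SE 0.042, adjusted P = 9.66e-05), the highest of the list at 26.7 ± 3.06 FPKM, and Jarid2 (−0.35, SE 0.069, adjusted P = 0.00143). The PRC2 subunit Suz12, second in level at 13.6 ± 1.03 FPKM, was at −0.058 (SE 0.060, adjusted P = 0.537). Of the 8 Trithorax and demethylase genes, 3 were called higher and 1 lower, with Kdm6b called before adjustment only, and Men1 (0.16, SE 0.052, adjusted P = 0.0334), Wdr5 (0.20, SE 0.068, adjusted P = 0.0459) and Rbbp5 (−0.17, SE 0.051, adjusted P = 0.0227) passed adjustment, where 34.7% of all genes were called before and 22.4% after it. The median log2 fold change was −0.055 over the Polycomb list and 0.047 over the Trithorax list.

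Cdx factors, Gdf11, Nr6a1 and retinoic acid set the Hox code in the embryo, and of 11 such genes 7 passed the filter and were tested. The growth factor Gdf11 was at 7.77 ± 0.489 FPKM and the retinoic acid receptor Rarg at 7.15 ± 0.387 FPKM. Cdx2 and Cdx4 were at 0 FPKM. For SNA against Sham over both housings 1 (Rara) was called higher before adjustment and 0 after it. Of all genes, 34.7% were called before and 22.4% after adjustment. Cyp26b1, which breaks down retinoic acid, was higher in EE + SNA than in SH Sham (0.68, SE 0.19, adjusted P = 0.0388). It was the 1 gene of this list called there, where 12.5% of all genes were called after adjustment.

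Genes beside the clusters were measured to see whether they moved with them. Of 7 neighbours 5 were tested, and over both housings 1 was higher and 1 lower after SNA, also after adjustment, where 34.7% of all genes were called before and 22.4% after adjustment. Mtx2, the gene next to Hoxd1, was lower, at −0.15 (SE 0.046, adjusted P = 0.0277), and Snx10, near the Hoxa cluster and at 56.2 ± 4.05 FPKM, was higher, at 0.15 (SE 0.047, adjusted P = 0.0310). Hibadh, also near Hoxa, was at 28.2 ± 1.40 FPKM and had −0.034 (SE 0.045). Evx1 and Evx2, the homeobox genes at the caudal ends of Hoxa and Hoxd, were at 0.0047 and 0 FPKM. Of 5 noncoding genes of the clusters 2 were tested, Hoxb3os at 2.47 ± 0.220 FPKM and Hotairm1 at 1.35 ± 0.351 FPKM. Neither was called for SNA against Sham over both housings, with −0.060 (SE 0.084) and 0.27 (SE 0.21). At the unadjusted threshold, Hotairm1 was called higher in EE + SNA than in EE Sham (0.76, SE 0.28, adjusted P = 0.153) and than in SH SNA (0.66, SE 0.27, adjusted P = 0.989). Its interaction of housing and surgery, 0.998 (SE 0.36, adjusted P = 1), also passed the unadjusted threshold alone. Hotair, which lies in the Hoxc cluster, was at 0.16 FPKM and Hottip, at the caudal end of Hoxa, at 0 FPKM.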

How the data were processed

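RNA of 12 sciatic DRG samples in 4 groups of 3 was sequenced by TruSeq mRNA libraries. The authors aligned paired reads to mm10 with TopHat 2.0.12 and counted them per gene with HTSeq. The deposited count table holds whole reads, not normalized, and the deposited FPKM table holds values that the authors divided by gene length and library total. Neither table has a sample column that could not be mapped.

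Counts of 11343579 to 22871460 reads per sample were scaled by TMM (factors 0.978 to 1.02) and filtered by filterByExpr (10 counts, total 15) in edgeR 4.0.16 (R 4.3.3), which left 16238 genes. CPM are on TMM-scaled library sizes. Each pair of groups was fitted on its 6 samples and tested two-sided by the quasi-likelihood F test. The comparisons of SNA with Sham and of EE with SH over both levels of the other factor used an additive model of all 12 samples, and the interaction and the test of any difference also used all 12. A call is an unadjusted P under 0.05, as in the study, or an adjusted one over all genes tested. A member was called expressed at a mean of 1 FPKM. Replicates were pools of 2 mice.

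The members, taken by name alone, and the lists of other genes were chosen with earlier results of these data known. Members were named, with full values for those leading a paralog group or called, and from each other list the 2 highest in FPKM and up to 3 called after adjustment. Genes outside this rule that make up a small count were named after their values were seen. Values of some genes are not reported here. Lists were TALE, Polycomb, Trithorax with demethylases, axial patterning, neighbours, noncoding genes and cell type markers.

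Replicates of a group differed beyond counting error (chi-square per degree of freedom 3.86 to 8.51), so that no library appeared to be deposited again. Replicate numbers were checked by correlating deviations from group means. Between EE Sham and SH Sham, r was 0.33, 0.13 and 0.12 for replicates 1, 2 and 3. There it was −0.33 to 0.195 between replicates of different numbers. Between EE + SNA and SH SNA, r was 0.055, 0.115 and 0.124, and −0.13 to 0.040 between different numbers. The correlations thus did not settle whether numbers pair the samples, and the main tests used no pairing. The labels do not say what a number stands for, and a shared batch is not given in the sources used here. In the 4 other comparisons at least 1 pair had r below 0.1.

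Alternatives were the likelihood ratio test, DESeq2 1.42.0, library size scaling, no filter, 10 counts in every sample, limma 3.58.1 on log2(FPKM + 1) or log2(FPKM + 0.1), a replicate block, all 12 samples in 1 fit, and each sample left out. The main test was tested on simulated counts. Gene positions are from GENCODE M21 and promoters from RefSeq. Figures used Matplotlib 3.10.9.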

Additional observations from a re-analysis of the deposited data

Results flagged for a closer look

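Hoxb6 drew attention because its change after SNA differed between the housings by the test of the difference itself. The log2 fold change after SNA was −0.96 (SE 0.15) in SH and −0.25 (SE 0.17) in EE, and the interaction was 0.72 (SE 0.23, unadjusted P below the threshold of 0.05 in edgeR's quasi-likelihood test). After adjustment over all genes the P was 1, and 2.61% of all genes passed the unadjusted threshold. The interaction lay between 0.58 and 0.89 in the 12 fits that left out 1 sample and between 0.53 and 0.73 in the other alternatives. It passed the unadjusted threshold in each of these fits and the adjusted one in 0. EE Sham spread from 5.84 to 8.85 CPM, and the SH SNA samples at 3.26 to 4.74 CPM were the lowest of the 12. No cause was tested.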

How the results depend on the processing

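For SNA against Sham over both housings the count of members called stayed within 1.5 times of 10, and that after adjustment within 1.5 times of 8, under every alternative and without any sample. Hoxd1 kept its direction and its adjusted call in each, with log2 fold changes of −0.86 to −0.74 by setting and −0.88 to −0.83 by sample left out.

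Small counts moved. For EE Sham against SH Sham, where the count was 1, DESeq2 called 0 members, limma called 2 with either pseudocount, and leaving out 1 sample gave 0 to 1. For EE + SNA against SH SNA, where it was 1, the count was 5 with no filter, 2 with 10 counts in every sample, 2 and 3 by limma on log2(FPKM + 1) and log2(FPKM + 0.1), 2 with all 12 samples in one fit and 1 to 5 without 1 sample, highest without SH SNA replicate 2. For EE + SNA against EE Sham, DESeq2 called 2 in place of 6, leaving out 1 sample gave 3 to 6 (3 without EE Sham replicate 1 or EE + SNA replicate 1), and after adjustment the likelihood ratio test, library size scaling, no filter, 10 counts in every sample and all 12 samples in one fit called 2 in place of 1. For EE against SH over both surgeries, no filter called 3 and limma 2 with either pseudocount, and leaving out 1 sample gave 1 to 3. The interaction called 2 with no filter and 1 to 2 without 1 sample. After adjustment, leaving out 1 sample gave 2 to 7 for SH SNA and 2 to 4 for EE + SNA against SH Sham, lowest without SH Sham replicate 2 in both and also without EE + SNA replicate 2 in the second, and 3 to 7 for any difference, lowest without SH Sham replicate 2. The mean paralog number was 7.56 with CPM as weight, 6.995 with log2(FPKM + 1) and 7.76 without Hoxd1, which was added after seeing the data. The cause was not tested.

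When replicate numbers entered as a block, EE Sham against SH Sham called 1 member and 0 after adjustment, as before. The block moved the count of EE + SNA against SH SNA from 1 to 3 (Hoxb6, Hoxc10 and Hoxd10), and the other counts stayed within 1.5 times. Whether replicate numbers pair the samples was not settled.

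The median half-width of the 95% interval over the members was 0.33 to 0.36 on the log2 scale for comparisons of 3 with 3 samples.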
